A study of Mus musculus with 8 samples.

Results

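Microvilli are the finger-like projections that cover the apical face of an enterocyte and together form its brush border. Each one holds a core of parallel actin filaments cross-linked by bundling proteins, tied to the membrane around it by ezrin and by a single-headed myosin, and joined at its tip to its neighbours by protocadherins. The 10 genes here include the bundlers Vil1, Espn and Pls1, the membrane linkers Ezr and Myo1a, and the adhesion proteins Cdhr2, Cdhr5 and Ush1c. The others are Eps8l3, a relative of the tip protein Eps8, and Krt20, a keratin of filaments under the microvilli. All 10 were chosen by name, and every probe set whose only gene symbol was one of these names was taken. That gave 11 probe sets, of 45037 probe sets tested and 18193 named genes. Ezr had 2 probe sets and each other gene had 1.

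Transcripts were measured with 1 array per mouse in the 5 cm of small intestine next to the pylorus of 8 male mice aged 6 months, described as brothers and littermates and fed a diet with 4.5% fat. In the 4 knockout mice, Pdx1flox/flox;VilCre, both Pdx1 alleles carried loxP sites around exon 2, and Cre was driven by a 12.4 kb fragment of the villin promoter, which is active in the gut epithelium. The 4 control mice, Pdx1flox/flox, carried the same loxP alleles without the Cre transgene, so the deletion of Pdx1 and the presence of Cre cannot be told apart. Pdx1, a homeodomain protein, controls transcription in duodenum and pancreas, and the study asked which transcripts of the mature duodenum depend on it. The samples were whole tissue, in which fewer cells of a type and less RNA per cell cannot be told apart. The labels call them biological replicates, 4 in each group.

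Values are the deposited log2 expression values, on which a difference of 1 is a doubling, and a log2 change is the knockout mean minus the control mean. A probe set counted as changed when its p-value in limma, adjusted over all 45037 probe sets by the Benjamini-Hochberg method, was under 0.05. The Pdx1 probe set 1422174_at read 6.04, 5.91, 6.18 and 5.58 in knockouts 1 to 4 and 8.33, 8.61, 8.16 and 8.98 in controls 1 to 4, and 1422173_at was likewise lower in every knockout. Array medians lay between 5.23 and 5.27. All 16 measured markers of mature enterocytes had means above the array medians. So did all 9 exocrine pancreas markers and all 4 stomach surface markers, and where their RNA came from was not tested.

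The microvillus transcripts differed little between the genotypes. None of the 11 probe sets passed the test in limma (0 of 11, with 6 at an unadjusted p under 0.05), against 0.0422% of all probe sets that passed and 7.13% at the unadjusted level. Most had a somewhat higher mean in the knockout: 9 of 11 log2 changes were above 0, against 50.0% of all probe sets, with a median of 0.19 beside 4.75e-05 over all probe sets. The highest was 0.29 and the lowest -0.08, while the smallest change that passed the test anywhere on the array was 0.57. The 95% intervals of all 11 together ran from 0.823-fold to 1.46-fold. These 11 probe sets are bright, each with a mean of at least 10.04, and bright probe sets as a whole leaned the same way. The share of bright probe sets at the unadjusted level is not given here. Of the 2883 probe sets with a mean of at least 10, a limit set after the members' values were seen, 71.8% had a change above 0, with a median of 0.05. With quantile normalization repeated, that share was 53.1% and its median 0.0052, while 8 of 11 member changes were above 0 with a median of 0.16.

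**Figure D1:**
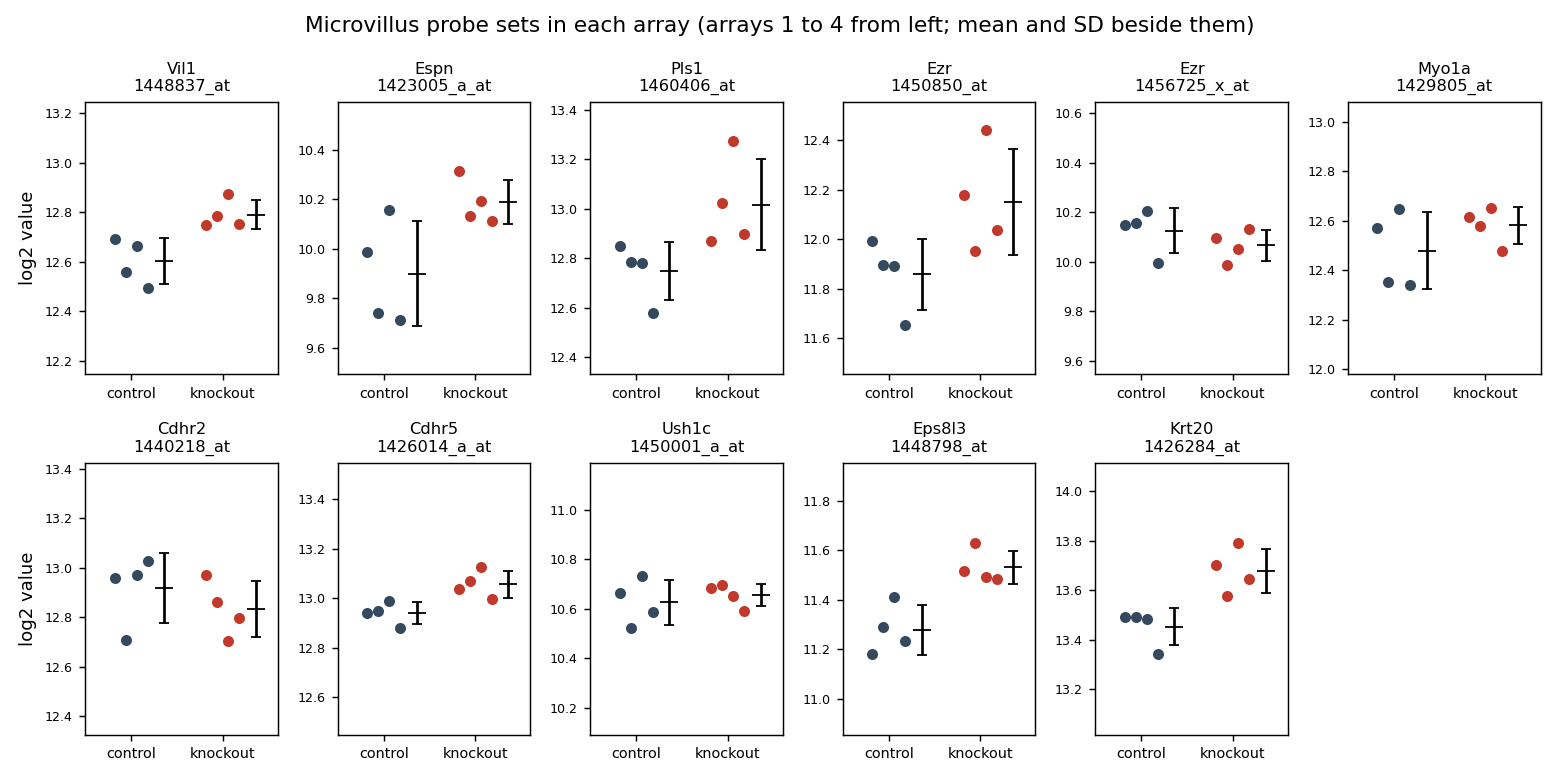
Log2 values of the 11 microvillus probe sets in each of 4 control and 4 knockout arrays, a panel per probe set spanning the same number of log2 units, with the mean and SD beside the points. In Vil1, Pls1, Cdhr5, Eps8l3 and Krt20 all 4 knockout points lie above all 4 control points, and in the other panels the groups overlap.

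In 5 of the 11 probe sets, those of Vil1, Pls1, Cdhr5, Eps8l3 and Krt20, every knockout value lay above every control value. Over all probe sets 2.10% were separated in that direction, and among those with a mean of at least 10 it was 5.34%. No member was separated the other way, for which no share over all probe sets is given here, and 6 overlapped. With a single array left out 5 or 6 members were separated that way, while the share over all probe sets was 3.29% to 4.07%. Without both knockout 3 and control 4 there were 5, against 6.86% of all probe sets. Leaving arrays out cannot undo such a separation, so these counts could only stay at 5 or rise.

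Among the actin bundlers, all 3 probe sets had changes above 0, between 0.19 and 0.29. Vil1 encodes villin, which bundles actin filaments and at high calcium cuts them, and whose promoter drives Cre in these mice. It read 12.75, 12.79, 12.87 and 12.75 in knockouts 1 to 4 and 12.69, 12.56, 12.66 and 12.49 in controls 1 to 4. The groups did not overlap, but the gap between the lowest knockout and control 1 was smaller than the range of the controls. The change was 0.19 with a standard error of 0.07 (95% interval 0.03 to 0.34, adjusted p = 0.660 in limma). It was 0.15 without control 4 and 0.12 without both knockout 3 and control 4.

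Pls1 encodes plastin 1, also called fimbrin, a bundler of the microvillus core whose ends reach into the terminal web. It read 12.87, 13.02, 13.27 and 12.90 in the knockouts and 12.85, 12.78, 12.78 and 12.58 in the controls. Knockout 3 was the highest and control 4 the lowest, and knockout 1 stood only just above control 1. The means were 13.02 ± 0.18 and 12.75 ± 0.12 (SD, n = 4 each), a change of 0.27 with an interval of 0.05 to 0.49 (adjusted p = 0.660 in limma). Espn encodes espin, a bundler that is also found in the stereocilia of inner ear hair cells. It read 10.31, 10.13, 10.19 and 10.11 in the knockouts and 9.99, 9.74, 10.16 and 9.71 in the controls. Control 3 lay among the knockout values while controls 2 and 4 were well below them, and the spread of the controls, 0.21, was wider than that of the knockouts, 0.09 (SD, n = 4 each). The change was 0.29 with an interval of 0.06 to 0.52 (adjusted p = 0.648 in limma).

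The stretches just upstream of these genes' starts are shown for Vil1, whose promoter drives Cre, and for Pls1 and Espn, the only members whose windows held the letters TAATTA, a core of the kind that Pdx1 and many other homeodomain proteins bind. Each is the 250 bases before a transcription start in RefSeq on GRCm38.p6, 5′ to 3′ on the gene's strand, with searched motifs in capitals. For Vil1 it is chr1:74409134-74409383 on the plus strand, for Pls1 chr9:95845280-95845529 on the minus strand and for the second of 3 Espn starts chr4:152136326-152136575 on the minus strand.
Vil1: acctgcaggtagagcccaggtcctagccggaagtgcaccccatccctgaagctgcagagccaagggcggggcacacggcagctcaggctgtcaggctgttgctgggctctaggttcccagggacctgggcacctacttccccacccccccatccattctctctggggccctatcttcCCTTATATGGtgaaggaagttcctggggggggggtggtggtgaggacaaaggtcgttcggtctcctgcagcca
Pls1: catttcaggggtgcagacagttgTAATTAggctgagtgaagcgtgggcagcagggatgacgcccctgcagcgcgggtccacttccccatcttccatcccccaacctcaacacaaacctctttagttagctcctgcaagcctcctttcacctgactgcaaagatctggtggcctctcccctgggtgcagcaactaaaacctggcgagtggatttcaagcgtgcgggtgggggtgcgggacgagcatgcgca
Espn: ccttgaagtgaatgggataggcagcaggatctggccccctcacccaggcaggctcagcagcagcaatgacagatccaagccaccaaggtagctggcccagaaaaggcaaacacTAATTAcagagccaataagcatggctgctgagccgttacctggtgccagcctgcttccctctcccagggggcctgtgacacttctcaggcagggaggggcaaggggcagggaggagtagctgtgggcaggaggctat

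All 10 genes matched the promoter table, with 12 windows, of 32851 windows of that length in all. TAATTA, which reads the same on both strands, was in 2 of the 12 windows, 227 bases before the start of Pls1 and 137 before that Espn start, and in 4.84% of all windows. TTTATTG, a Cdx-type homeodomain motif, was on either strand in 0 of 12 and in 4.20% of all. AAGTCCA, part of an Hnf4 site, was in the Cdhr5 window and in 3.36% of all windows. The Krt20 window held the Gata motif AGATAA, as did 9.99% of all. The capitals in the Vil1 sequence mark a CArG box, the motif of the actin-regulated factor Srf, 73 bases before the start. It was searched for after the sequence was seen, was in no other member window and was in 1.47% of all windows. No 2 of these matches overlapped. They describe letters, not bound sites, and 7 of the 12 windows held none of the motifs.

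Of the proteins that tie the core to the membrane, ezrin gave a different reading on each probe set. Ezr encodes the linker that binds actin at one end and membrane proteins at the other once it is phosphorylated. On 1450850_at it read 12.18, 11.95, 12.44 and 12.04 in the knockouts and 11.99, 11.90, 11.89 and 11.65 in the controls. Knockout 2 lay below control 1, so the groups overlapped, and the change of 0.29 had an interval of 0.04 to 0.55 (adjusted p = 0.670 in limma). On 1456725_x_at it read 10.10, 9.99, 10.05 and 10.13 against 10.15, 10.16, 10.20 and 9.996, a change of -0.06 with an interval of -0.21 to 0.10 (adjusted p = 0.895 in limma). The suffix of this second probe set marks probes that may also bind other transcripts, and the difference between both probe sets was not tested. Myo1a encodes the myosin that forms the lateral bridges from the core to the membrane. It read 12.62, 12.58, 12.65 and 12.48 in the knockouts and 12.57, 12.35, 12.65 and 12.34 in the controls. Controls 1 and 3 read like the knockouts, and controls 2 and 4 were lower. The change was 0.10 with an interval of -0.09 to 0.29 (adjusted p = 0.839 in limma).

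The intermicrovillar adhesion proteins held Ush1c and Cdhr2, the genes with the smallest differences by their brightest probe sets, and Cdhr2 was the only gene lower on that measure in the knockout. Cdhr2 and Cdhr5 are protocadherins whose outer parts bind each other between the tips of adjacent microvilli, and Ush1c encodes harmonin, the scaffold that holds their tails. Cdhr2 read 12.97, 12.86, 12.70 and 12.80 in the knockouts and 12.96, 12.71, 12.97 and 13.03 in the controls. Its knockout values lay within the range of the controls apart from knockout 3 just below it, with a change of -0.08 and an interval of -0.28 to 0.11 (adjusted p = 0.877 in limma). Its partner Cdhr5 read 13.04, 13.07, 13.13 and 13.00 in the knockouts and 12.94, 12.95, 12.99 and 12.88 in the controls. The groups were separated, though by less than the spread within either one, and the change was 0.12 with an interval of -0.02 to 0.26 (adjusted p = 0.740 in limma). Ush1c read 10.68, 10.70, 10.65 and 10.59 in the knockouts and 10.66, 10.52, 10.73 and 10.59 in the controls. The values of both genotypes were mixed, and the change of 0.03 had an interval of -0.12 to 0.18 (adjusted p = 0.950 in limma). Its sign turned to -0.0082 with quantile normalization repeated and to -0.0049 without control 2.

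Eps8l3 and Krt20 had the smallest p-values of the members. Eps8l3 belongs to the family of Eps8, which caps and bundles actin filaments at microvillus tips. It read 11.52, 11.63, 11.49 and 11.48 in the knockouts and 11.18, 11.29, 11.41 and 11.23 in the controls. All knockouts lay above control 3, the highest control, and the change was 0.25 with a standard error of 0.07 and an interval of 0.09 to 0.41, or 1.19-fold (unadjusted p = 0.00559, adjusted p = 0.561 in limma). Krt20 encodes a keratin of mature enterocytes, whose filaments lie under the microvilli. It read 13.70, 13.58, 13.79 and 13.65 in the knockouts and 13.49, 13.49, 13.49 and 13.34 in the controls. The controls other than control 4 were nearly identical, and the change was 0.22 with an interval of 0.07 to 0.38 (unadjusted p = 0.0101, adjusted p = 0.599 in limma). The 6 probe sets with an unadjusted p under 0.05 were these, the 3 bundlers and the first Ezr probe set. The 6 became 3 without knockout 3, 2 without control 4 and 1 without both, an omission chosen after the data were seen.

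**Figure D2:**
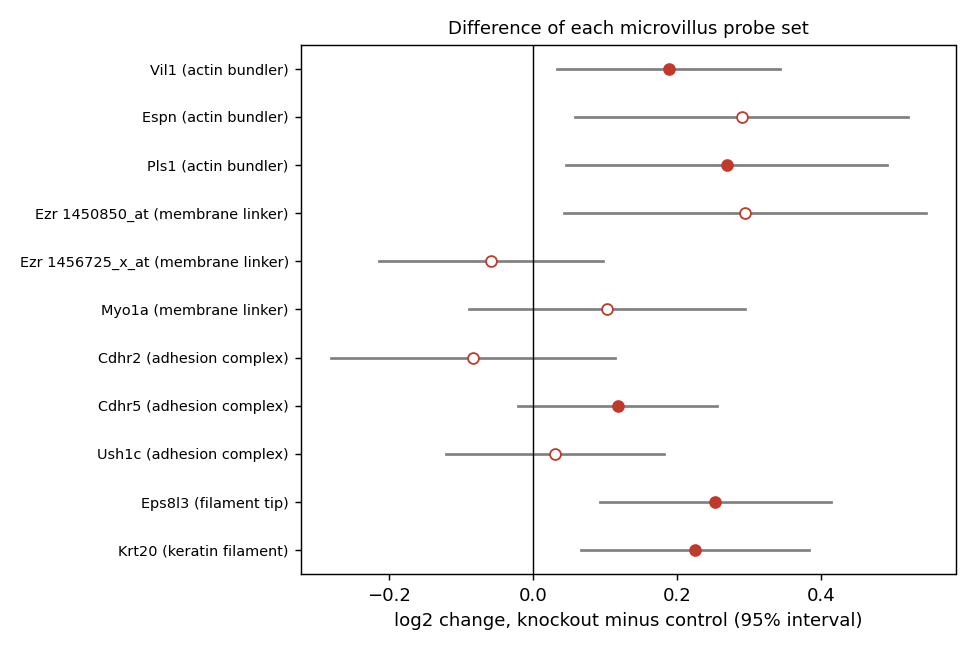
Log2 change (knockout minus control, 4 arrays each) of the 11 microvillus probe sets with its 95% interval from limma; filled points mark probe sets whose groups do not overlap. The changes run from -0.08 for Cdhr2 to 0.29 for Ezr, and 6 of the 11 intervals, which are not adjusted for the number of probe sets, lie above 0.

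The members varied together from mouse to mouse. With each gene as its brightest probe set, 6 of 10 genes had their highest value in knockout 3 and 7 of 10 their lowest in control 4. Knockouts 1 and 3 each had 9 of 10 genes above the gene's own mean over 8 arrays, knockout 2 had 8 and knockout 4 had 6. Among the controls the counts were 3, 0, 5 and 1. Averaged over the 10 genes, the deviation from that mean was 0.10, 0.07, 0.16 and 0.01 in the knockouts and -0.03, -0.13, 0.01 and -0.18 in the controls. Knockout 4 and control 3 stood nearly level. After the group means were taken out, Pearson's r over the 8 arrays averaged 0.39 across the 45 pairs of members, from -0.58 for Pls1 with Cdhr2 to 0.97 for Ezr with Krt20. The average over all pairs of the 1792 genes with a mean of at least 10, of any cell type, was 0.02. No average over pairs of enterocyte markers alone is given here. These correlations are descriptions over arrays that share 1 mouse and 1 hybridisation per column. Cdhr2 was lowest in knockout 3 and highest in control 4. Its r after the group means were taken out was negative with Pls1, Cdhr5, Krt20, Ezr and Vil1. It was positive with Ush1c (0.59), Espn (0.38), Myo1a (0.25) and Eps8l3 (0.05).

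**Figure D3:**
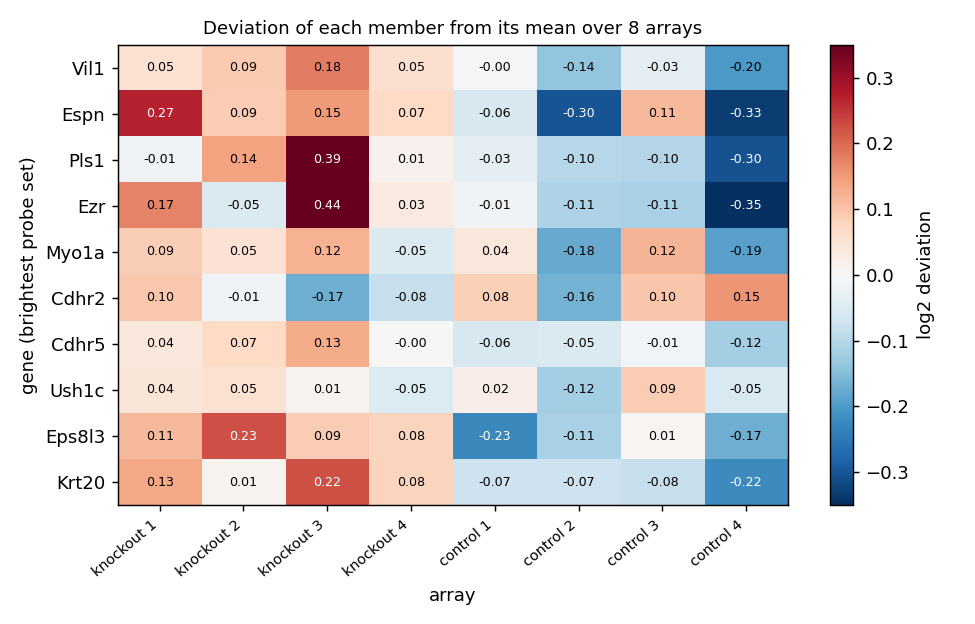
Log2 deviation of each of the 10 members (rows, brightest probe set) from its own mean over 8 arrays, in 4 knockout and 4 control arrays (columns); red is above the mean and blue below. Knockout 3 is the highest array for 6 members and control 4 the lowest for 7, while Cdhr2 is lowest in knockout 3 and highest in control 4.

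The genes outside the list with the pattern most like the members' average over the 8 arrays were Zfp169 (Pearson's r = 0.982), Galns (0.980), Pef1 (0.977), Afg3l2 (0.970) and Dgcr6 (0.967). They were the top of 18193 genes ranked by that value, and 69 genes, members included, had r above 0.9. Zfp169 read near the array medians, with means of 5.27 in the knockouts and 5.21 in the controls. Of the members themselves Vil1 was closest to the average at 0.965, and Cdhr2 stood apart at -0.26. Each member is part of that average, which raises its r, so these values do not compare with those of genes outside the list.

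Between the groups, markers of the mature enterocyte had differences of a like size, but their order among the knockouts differed from the members'. Of 16 measured mature enterocyte markers 16 had a change above 0, with a median of 0.22, beside 9 of 10 and 0.21 for the members by their brightest probe sets. Every knockout value lay above every control value in 6 of those 16 markers and in 5 of the 10 members. That was 2.10% over all probe sets and 5.34% among those with a mean of at least 10. In limma 8 of the 16 and 6 of the 10 had an unadjusted p under 0.05, against 7.13% of all probe sets. The mean level of the enterocyte markers was 12.93 to 13.24 in the knockouts and 12.70 to 13.01 in the controls. None passed the test; the peptidase gene Anpep had 0.43, the retinol-binding protein gene Rbp2 0.28 and the peptidase gene Mep1b 0.21. Taken relative to the enterocyte markers within each array, the members were at -0.03 ± 0.19 in the knockouts and 0.03 ± 0.09 in the controls (SD, n = 4 each), and the groups overlapped. General epithelial markers had 7 of 10 above 0 with a median of 0.09, with mean levels of 11.54 to 11.81 and 11.60 to 11.67. Relative to these, the members were at 0.06 ± 0.05 and -0.06 ± 0.11, again with overlap. Relative to smooth muscle markers, the members were at -0.04 ± 0.16 and 0.04 ± 0.10, also with overlap. Goblet cell markers had 3 of 7 above 0. Crypt and dividing cell markers had 5 of 9 above 0 with a median of 0.06. Among these, Ascl2 had -0.30, Lgr5 -0.28 and Smoc2 0.10.

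The smooth muscle, exocrine pancreas and stomach surface lists each lay wholly on one side of 0. Smooth muscle markers had 11 of 11 above 0 with a median of 0.21, at mean levels of 9.50 to 9.91 in the knockouts and 9.41 to 9.53 in the controls, with Actg2 at 0.52 and Synm at 0.40. Exocrine pancreas markers had 0 of 9 above 0 with a median of -0.20, and their mean level ranged from 12.65 to 13.65 in the knockouts and from 11.75 to 14.15 in the controls. Klk1, a kallikrein, had -0.92 with every knockout below every control (adjusted p = 0.355 in limma). The suffix of its probe set, 1448107_x_at, marks probes that may also bind other transcripts. The groups overlapped in the other 8 pancreas markers, among them Pnliprp1 at -0.58 and Cela1 at -0.23. Stomach surface markers had 0 of 4 above 0, at 11.47 to 12.02 and 11.22 to 12.74. Control 4, where most members were lowest, had the highest pancreas level. Control 3, with the lowest pancreas level, had the highest member average of the controls, but knockout 3 had the highest member average of all with the second highest pancreas level. Fibroblast markers had 5 of 6 above 0 and leukocyte markers 4 of 6. No marker of these cell types passed the test or had a mean below the array medians. The part of any of these tissues in the members' differences was not tested.

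**Figure D4:**
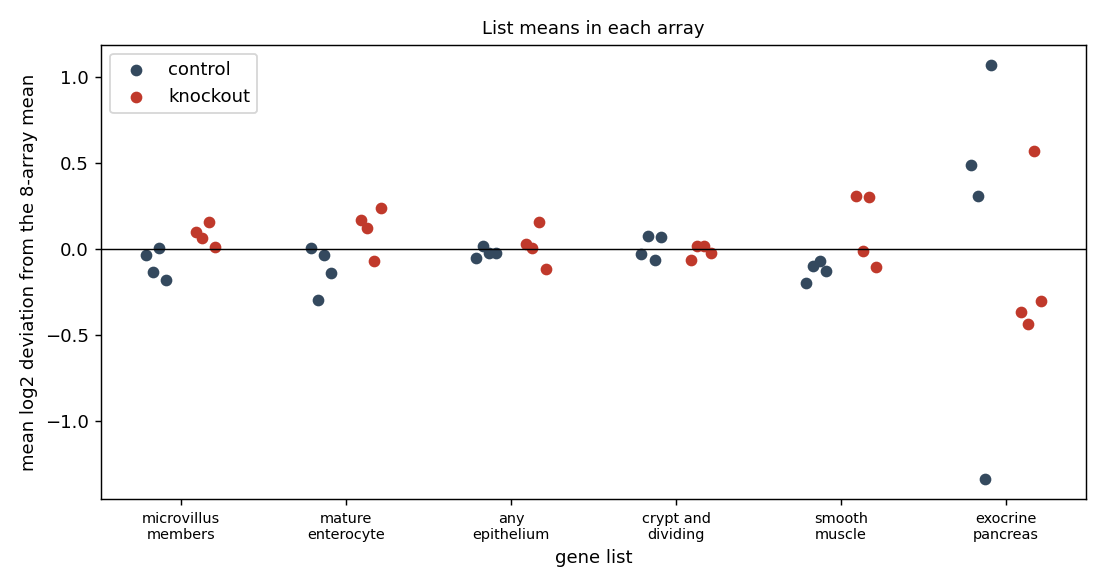
Mean log2 deviation of each gene list from its own mean over 8 arrays, a point per array, for the 10 microvillus genes and for markers of mature enterocytes, any epithelium, crypt and dividing cells, smooth muscle and exocrine pancreas. The microvillus points span -0.18 to 0.16, the enterocyte points -0.30 to 0.24 and the pancreas points -1.34 to 1.07.

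Other genes that build or serve the brush border showed no changed member either. Of 56 measured genes in 6 lists, 0 passed in limma, and 8 had an unadjusted p under 0.05, against 7.13% of all probe sets. Changes above 0 were seen in 38, with a median of 0.07. That share was 50.0% over all probe sets and 71.8% among those with a mean of at least 10. Separated groups with the knockout higher made up 2.10% of all probe sets and 5.34% of those bright ones. Beside the adhesion members, all 4 genes of the further adhesion list were above 0. Anks4b, an adaptor that binds harmonin and the motor, had 0.28 with separated groups (adjusted p = 0.527 in limma), the adhesion gene Tmigd1 had 0.41 with a wide interval of -0.25 to 1.07, and the motor gene Myo7b had 0.05. Calml4, the light chain of that motor, had 0.0043 with an interval of -0.14 to 0.15.

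Among linkers, ezrin kinases and motors, 10 of 13 were above 0 with a median of 0.09. Clic5, a partner of ezrin, had 0.33 with separated groups (adjusted p = 0.452 in limma). The ezrin relative moesin, Msn, had 0.33, and the ezrin kinase gene Stk10 had 0.18. In the other core and tip genes 4 of 10 were above 0 and the median was -0.0060. Eps8 had 0.22, and its relative Eps8l1 had -0.42 with every knockout below every control, at means of 4.99 and 5.41 near the array medians (adjusted p = 0.355 in limma). The villin relative Vill had -0.21.

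The terminal web list, the filament mat under the microvilli, had 10 of 11 above 0, at small values from -0.01 to 0.14. Krt8, the main partner keratin of the simple epithelium, had 0.12, the filament cap gene Tmod3 0.14 and the myosin gene Myh9 0.08. In apical delivery 6 of 8 were above 0, with the membrane fusion gene Stx3 at 0.21, the small GTPase gene Cdc42 at 0.16 and the sorting gene Vipas39 at -0.09. Of the transcription factors of the enterocyte 4 of 10 were above 0. Hnf4g, a driver of brush border genes, had 0.28 with separated groups (adjusted p = 0.561 in limma), Cdx1 had 0.27 and Smad4 0.22, while Hnf4a had -0.0045 and Srf -0.12.

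**Figure D5:**
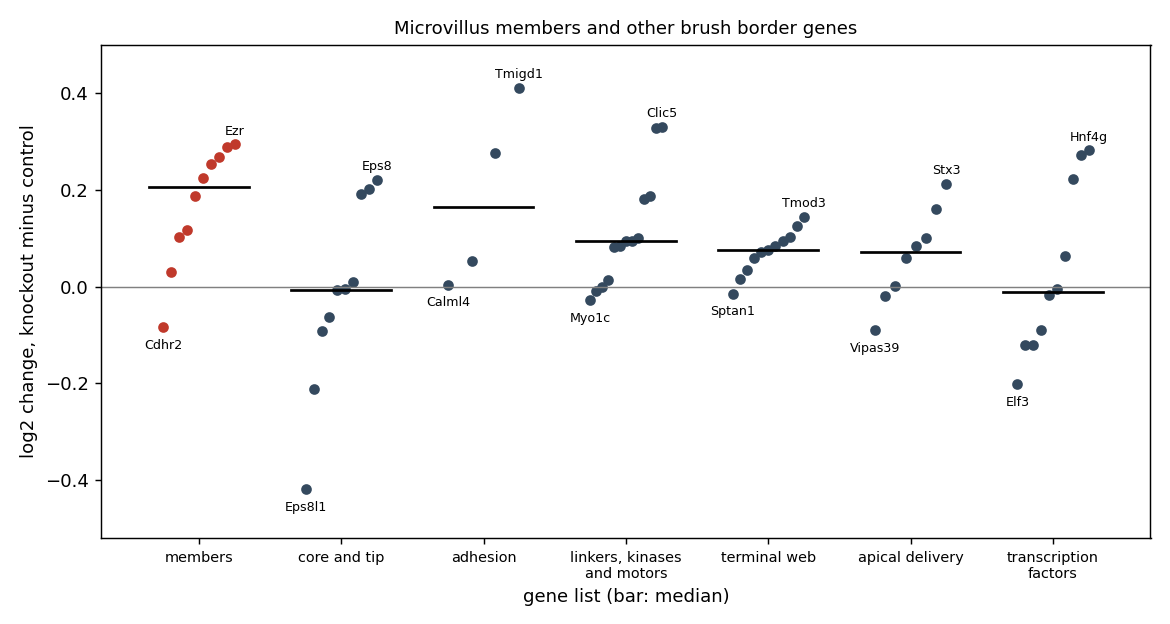
Log2 change (knockout minus control, 4 arrays each) of the 10 microvillus members and of 56 other measured genes in 6 lists, a point per gene with the median as a bar and the lowest and highest gene named. Medians run from 0.21 for the members to -0.01 for the transcription factors, and no gene passed the test.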

How the data were processed

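Whole proximal intestine of 4 knockout and 4 control mice was measured on Affymetrix arrays, 1 per mouse. The authors deposited log2 expression values per probe set; the submitters' processing notes name Partek 6.4 without a role. How background was corrected and arrays normalized is not given in the sources used here. Their log2 scale was read from the values, 2.55 to 14.83. No detection calls came with the table. Precision is limited by the number of arrays.

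From 45101 probe sets, 64 array controls were left out. Probe sets were named through the platform annotation of GEO, in which 34945 probe sets had 1 symbol, 932 several and 9160 none. Knockout minus control was fitted in R 4.3.3 with limma 3.58.1 (lmFit, then eBayes), two-sided, with no filter, covariate or block, and p-values were adjusted over 45037 probe sets. The script was tested on simulated data. Lists used a gene's probe set with the highest mean.

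Named genes were Pdx1, every member, up to 3 genes of the smallest p per list (Calml4, Hnf4a and Srf were added after their values were seen) and the 5 genes most like the members' average. The members and lists were chosen with earlier results of these data known. Alternatives were a replicate block, repeated quantile normalization, median centring, a minimum mean or a floor of 5, array weights, a trended robust prior, a linear model without eBayes and each array left out. Promoter sequences are RefSeq's on GRCm38.p6. Figures used matplotlib 3.10.9.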

Additional observations from a re-analysis of the deposited data

Results flagged for a closer look

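Krt20 in control 4 read 13.34, while the other 3 controls all read 13.49. Its gap to the nearest of them was 0.954 of the whole range of the controls, above Dixon's 95% critical value for groups of that size. It was the only such value among 26 groups of 4 tested for the member and Pdx1 probe sets, and chance flags about 1 in 20. Without control 4 the Krt20 change was 0.19 (adjusted p = 0.667 in limma), against 0.22 with all arrays. Control 4 was also the lowest array for 7 of the 10 members and had the highest exocrine pancreas level, and the part of that level in the Krt20 value was not tested.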

How the results depend on the processing

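No microvillus probe set passed in any of 17 alternative fits, where the lowest adjusted p in limma was 0.435, with array weights. Of 187 member values under those fits, 185 kept their sign and 2 did not, both of Ush1c, at -0.0082 with quantile normalization repeated and -0.0049 without control 2 (up to 0.065 with other single arrays left out); the cause was not tested. The median member change ranged from 0.15 to 0.22 with a single array left out, was 0.12 without both knockout 3 and control 4, and was 0.21 with 1 probe set per gene. Of all probe sets 19 passed; 4 did with values under 5 set to 5 and 2 in an ordinary linear model, whose cause was not tested, and 13 to 20 with a single array left out. Same-numbered knockouts and controls did not deviate together (r = -0.09, -0.12, -0.18 and 0.08), so the numbers were not taken to pair the mice; with the replicate number as a block 24 probe sets and 0 members passed, the lowest member adjusted p being 0.894. With 4 arrays a group, each member's 95% interval was wider than its change.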
